A study of Mus musculus with 8 samples.

Results

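The sites described here are called N6-methyladenines whose immediate sequence recurred at a separate place in the mouse genome. A site belonged to the set when the middle 15 bases of its 41-base context, called the core here, equalled the core of another called site on another chromosome or more than 10 kb away. Of the 17418 called sites in 4 lists, 15793 lay outside the contig and the 4 chromosome intervals that the rule left aside (on chromosomes 2, 9 and 14). Among these, 701 had a repeated core, 282 of them were dropped because the core held fewer than 3 different bases, and none was dropped for a period of 2, 3 or 4 bases. The 419 sites that remained fell on 419 positions and shared 163 different cores.

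The study immunoprecipitated native chromatin with a customized H2A.X antibody and sequenced the DNA by single-molecule real-time (SMRT) sequencing, in which a modified base slows the polymerase. The cells were TT2 embryonic stem cells of a C57BL6 x CBA background, wild type (WT) or with a knockout (KO) of Alkbh1, cultured feeder-free, at passage 5 to 10. The DNA was sequenced in a long (L) and a short (S) part, which gave the groups KO S, WT S, KO L and WT L with 2 replicates each. Each group has a single list of called adenines in which both replicates are joined, so the groups could not be compared against the spread between replicates and no p-value is given. The number of KO clones behind the lists is not given in the sources used here.

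Much of a mammalian genome consists of dispersed repeats, sequences that spread by copying themselves to new places. LINE-1 elements are autonomous retrotransposons that encode the proteins for their own copying, and the short B1 and B2 elements of rodents borrow that machinery. Young LINE-1 copies are nearly identical to each other, and reads from such copies can be hard to place. N6-methyladenine is a rare base in mammalian DNA, and Alkbh1 is a dioxygenase that has been described as removing it. H2A.X is a histone variant best known for its phosphorylation next to DNA breaks.

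The cores with the most separate places are shown here in order of that number, because the sequence itself is what the sites share. The called adenine is the capital letter, read 5′ to 3′ on the called strand.
core 1: atataagAtacaatt
core 2: gcagcccAtcggccg
core 3: cactgaaActtatag
core 4: cagtcccAtatcacc
core 5: ccattgcAtacacta
core 6: acagtgtActtacat
core 7: caaaattAttgaaga
core 8: ctccaaaAttgacca
core 9: gatggcgAccgctgc
core 10: ggcactcAgagctat
core 11: tagagaaAgtaccca
core 12: tagtactAtgtccaa
Most cores recurred only once. Of the 163 cores, 112 were at 2 places, 32 at 3 and 19 at 4 or more, where a place joins positions within 10 kb. In 153 cores the sites lay on more than 1 chromosome.

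Core 1 was called at 8 places on 6 chromosomes, and the called adenines were listed in WT L, WT S and KO S. The inter-pulse duration (IPD) ratio, the observed pause of the polymerase divided by the predicted one, was 2.88 and 2.45 in WT L and 2.23 in KO S. In WT S it was 2.74, 4.41, 2, 2.73 and 1.80. The copies of this sequence thus covered a range from 1.80 to 4.41, with a median of 2.59. Coverage, which counts the reads or passes at the base, ran from 7 to 39, and the lowest ratio belonged to the site with the highest coverage. The KO S site lay in Hgsnat, which encodes a lysosomal acetyltransferase, and 1 WT L site lay in Rarb, a retinoic acid receptor gene. Flanks of these copies differed more than those of most other leading cores, with 19 to 25 of 26 bases equal between pairs.

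Core 2 stood at 8 places on 6 chromosomes and had higher IPD ratios. They were 4.03, 4.41 and 4.67 at the KO S sites, 6.09, 4.56 and 4.10 at the WT S sites and 3.48 and 6.48 at the WT L sites, with a median of 4.485 and coverage from 7 to 19. Every one of these 8 values lay above 2.66, the median of the other sites outside the intervals left aside. The 41-base contexts show how alike the copies were, with the core in capitals.
core 2, chromosomes 4, 5, 7, 10 and 13: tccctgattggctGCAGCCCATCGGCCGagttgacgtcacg
core 2, chromosome 11: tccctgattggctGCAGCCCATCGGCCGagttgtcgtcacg
The copy on chromosome 11 (position 16206774, mm10, WT S) differed by A34T, with the sequence of the other copies as reference and positions counted from 1 at the 5′ end of the context. All 7 other copies were identical over 41 bases, so 21 of 28 pairs had no difference. The 7 identical copies hold TGACGTCA, a palindrome and therefore the same on both strands, which was searched for after the contexts had been seen. That is 7 of 8 copies (87.5%), and 10 of the 15793 contexts outside the intervals left aside (0.0633%) hold it. Of these 10 contexts, 7 are the core 2 copies themselves. Since the 7 copies are identical, any stretch picked from their context would be held by all of them, so the 2 shares do not measure an enrichment. Core 2 itself was found in 8 RefSeq promoter windows. A CpG, the dinucleotide that carries cytosine methylation in mammals, lies in the 41 bases of 36% of all members (31.4 to 40.8%) and 28.8% of the other sites, and in all core 2 contexts. By list the shares of members and others were 49.4 and 31.0% for KO S and 35.1 and 28.7% for WT S. They were 32.3 and 28.8% for KO L and 26.9% for both in WT L. Only in KO S did the members' interval (38.4 to 60.5%) leave out the others' share. In WT S (28.3 to 42.3%) and KO L (21.2 to 45.1%) the members' interval held that share. Among the genes that hold a core 2 site are Slc2a9, a urate and sugar transporter gene, the lncRNA gene LOC108169020, 2900092C05Rik and Gm32647.

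The remaining leading cores had narrower or wider ranges that did not follow the number of copies. Core 4 had the narrowest, with IPD ratios of 2.66 and 2.94 at the KO S sites, 2.56 in KO L, 2.78 and 2.66 at the WT S sites and 3.19 in WT L. Core 3 was at 7 places and was listed in all 4 groups, at 2.31 for KO S, 2.92 and 3.76 for KO L, 3.52 and 2.40 for WT S and 2.91 and 2.55 for WT L. In core 4 the KO S and WT S values overlapped, while the single KO L value was the lowest and the single WT L value the highest. In core 3 the WT S values spanned those of WT L and overlapped those of KO L. There the KO L values lay above those of WT L, and the single KO S value was the lowest. So few sites per list do not allow a comparison of the lists. Core 12 had the widest range of these 12 cores, from 2.75 to 8.19, and the top value came from a site of coverage 6 in A230006K03Rik.

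Core 7 combined identical copies with long pauses. Its IPD ratios were 5.61 and 4.25 at the KO S sites and 3.59, 5.59 and 4.08 at the WT S sites, and all 10 pairs of its 5 copies were identical over 41 bases. It had no site in either L list. One WT S site lay in the immunoglobulin heavy chain locus (Igh), and another in Colec10, a gene for a secreted lectin. Core 5, with 6 places, had IPD ratios of 2.57 to 3.68 and a site in Tcra, the T cell receptor alpha locus, that carried a score of 52 (20 is the lowest score in the lists).

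Cores 8, 10 and 11 reached below an IPD ratio of 2, with ranges of 1.91 to 3.02, 1.97 to 4.18 and 1.89 to 4.49. Core 8 had sites in Abca13, a transporter gene of the ABC family, in Vmn2r60, a vomeronasal receptor gene, and in the dynein gene Dnah7c. Sites of core 11 lay in Nrxn3, a synaptic adhesion gene, in Mpp4, and in Dnm3, a dynamin gene. The plot of IPD ratios by core shows these ranges beside each other.

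**Figure D1:**
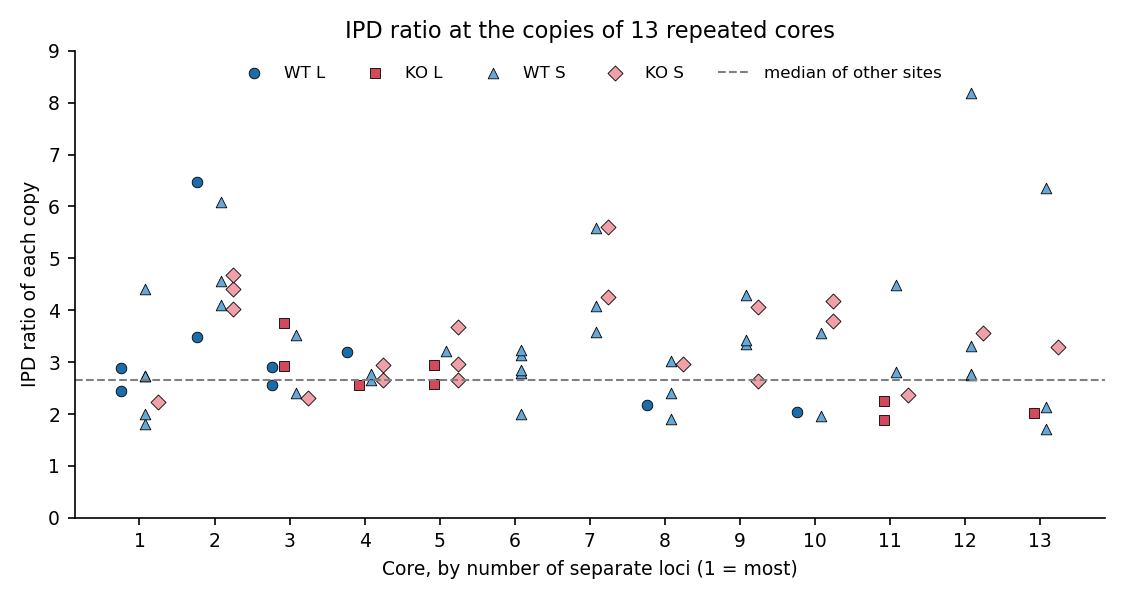
IPD ratio of every member site (vertical axis, points by list) for 13 cores numbered by their number of places (horizontal axis), with the median of the other sites as a dashed line. Core 2 lies at 3.48 or above at each of its 8 sites, whereas core 1, with as many sites, spreads from 1.80 to 4.41, and core 13 is the B1 core tgctgggAttaaagg.

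The 26 bases on both sides of the core were not used to choose the sites, so they measure how alike the copies are. Over the 431 pairs of copies at separate places, a median of 24 of these 26 bases were equal (quartiles 22 and 25, range 4 to 26). In 92 pairs (21.3%, exact Clopper-Pearson 95% interval 17.6 to 25.5%) the whole 41-base contexts were identical, and 45 cores had such a pair. At least 20 bases were equal in 372 pairs (86.3%). By contrast, 13 or fewer were equal in 27 pairs (6.26%), so a small share of pairs had flanks that were mostly unlike. Cores with many copies give more pairs, and the share of cores with unlike flanks was not counted. The pairs of a core share members, and the interval, like all intervals given here, covers counting error only. Whether reads were placed at the right one of several identical copies was not tested. The contexts are letters of the reference genome rather than of the reads, since 59 of 59 contexts inside RefSeq promoter windows equalled the GRCm38.p6 sequence there.

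**Figure D2:**
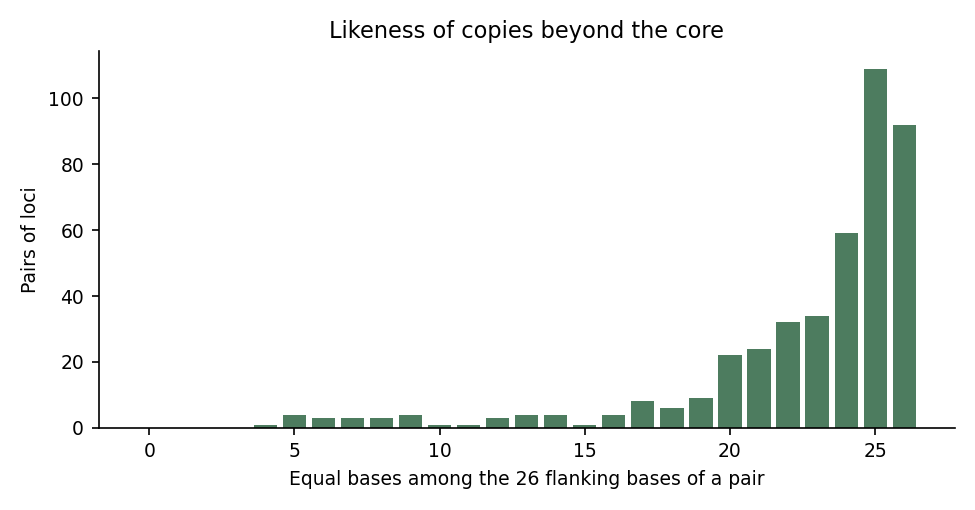
Number of equal bases among the 26 flanking bases for each of the 431 pairs of copies, as a count of pairs (vertical axis) at each number of equal bases (horizontal axis). Most pairs lie at 20 or more, and the 92 pairs at 26 are identical over the whole context.

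The cores also recurred beyond the called sites. Of the 163 cores, 96 (58.9%, interval 50.9 to 66.5%) were found on either strand in at least 1 of 32851 RefSeq promoter windows, which reach from 250 bases before to 50 after a gene's start (assembly GRCm38.p6). Over all 14971 different cores outside the intervals left aside that met the same rule on base composition, the share was 10.4%. In the 14808 cores that did not recur it was 9.89% (9.41 to 10.4%). Presence in 10 or more windows held for 37 cores (22.7%) against 152 of the others (1.03%). A core repeated among called sites was thus also repeated elsewhere in the genome more often, as the label of dispersed repeats implies. A run of adenines, aaaaaaaAaaaaagt, was found in the most windows, 85, and the B2 core cccagcaAccacatg was among the next, with 68.

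Cores whose contexts shared a run of 15 or more bases were joined into groups, because neighbouring adenines of 1 repeat give different cores. This gave 97 groups, of which 69 held a single core and 28 held the other 94 cores. Repeat names were then given to groups by eye from general knowledge, after the sequences had been seen and without a repeat annotation, so they are descriptive. LINE-1 was given to 35 groups with 68 cores and 189 sites (45.1% of the members). B2 was given to 2 groups with 17 cores and 42 sites (10.02%), and B1 to 3 groups with 8 cores and 21 sites (5.01%). A group of adenine runs held 16 sites, although other cores with such runs were not joined to it and stayed without a name. The name satellite-like was given to 2 sites, and 149 sites (35.6%) in 55 groups received no name. A separate filter, on words of 12 bases shared with the sites left aside, marked 4 members as satellite-like.

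The group with the most sites was 1 end of B2, with 9 cores, 24 sites at 23 places and 14 chromosomes. The next was the middle of B2, with 8 cores and 18 sites. After the adenine runs came 2 LINE-1 groups with 14 sites each, the first of which holds core 12. Their contexts, with the core in capitals, show a called adenine in each of these stretches.
B2 end, chromosome 12, KO S: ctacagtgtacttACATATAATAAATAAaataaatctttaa
B2 middle, chromosome 14, WT S: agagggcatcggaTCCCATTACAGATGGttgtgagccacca
The first of these sites (position 108283704) had the highest score of the KO S members, 39, with an IPD ratio of 2.58 at coverage 20. The second (position 75824351) had a ratio of 2.83 at coverage 11. Core 6 belongs to the B2 end as well. Its 5 sites all came from WT S, with IPD ratios of 3.13, 2.80, 2, 3.23 and 2.85, and 3 of them lay in Slc8a3, P3h2 and Prkg1. These genes encode a sodium and calcium exchanger, a collagen prolyl hydroxylase and a cGMP-dependent kinase. The IPD ratio of the 42 B2 sites had a median of 2.72 (2.57 to 2.94), and 16 of the 17 B2 cores were found in promoter windows.

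B1 copies were shown by 21 sites, 13 of them in WT S. Contexts from 2 cores of the same B1 group are given with the core in capitals.
B1, chromosome 2, WT S: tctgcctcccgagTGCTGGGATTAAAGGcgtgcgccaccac
B1, chromosome 14, WT S: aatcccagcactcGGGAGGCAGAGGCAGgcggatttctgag
The first (position 28582243) lay in Gtf3c5, a subunit gene of a polymerase III transcription factor, with an IPD ratio of 2.14. The second (position 33052319) lay in Wdfy4, a gene used in antigen presentation, with a ratio of 3.14. Copies of the first core were less alike than most, with 9 to 24 of 26 flanking bases equal, and its 5 IPD ratios ran from 1.71 to 6.35. This core tied with the last of the 12 above in number of places, and it was chosen after its values were seen. Over the 21 B1 sites the median IPD ratio was 3.14 (2.35 to 4.15), and that interval holds the medians of the B2 and LINE-1 sites (2.72 and 2.86).

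Core 9 and core 16 (cagcagcAgcggtcg) read the same LINE-1 stretch from opposite strands. Core 9 had IPD ratios of 2.64 and 4.06 at its KO S sites and 4.29, 3.43 and 3.35 at its WT S sites. Core 16 had 3.71 and 4.72 at its KO S sites, 1.75 in KO L and 3.50 in WT S. On chromosome 10 both strands of 1 copy were called in KO S, at 66582388 on the plus strand and 66582393 on the minus strand, 5 bases apart.

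Calls close to each other occurred elsewhere too, though without a repeat annotation it was not checked whether they lay in the same copy. In all, 19 pairs of members lay within 1000 bases of each other, all 19 within a single list, 8 on opposite strands and 7 within 1 group of cores. On chromosome 4, 4 KO S members lay at 66775553, 66775555, 66775559 and 66775902, and this cluster alone gave several of the 19 pairs. The adenines of core 7 were called with a second core 4 bases away at 2 places, on chromosome 12 in WT S and on chromosome 15 in KO S. At both the same pair of adenines was called in different genotypes and at different copies. Another call of the same list, member or not, lay within 41 bases for 16.5% of members (13 to 20.4%) and for 12.8% of the other sites. By list the shares of members and others were 23.5 and 11.7% for KO S, 16.2 and 15.9% for WT S, 13.8 and 10.1% for KO L and 11.5 and 10.1% for WT L, so the pooled difference rests largely on KO S.

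Some rarer cores had the longest pauses. Core gaatctcAgggttgt had an IPD ratio of 15.37 on chromosome 4 (position 53368564, KO S, coverage 12) and 8.23 in Otud7a, a deubiquitinase gene, on chromosome 7 (position 63709961, WT S, coverage 7). Core ggagatcAaggggat had 7.70 for its KO L site and 7.21 for WT L. Core aacatccAggaaatc had 7.03 for its KO L site, 7.30 for WT S and 6.28 for WT L at coverage of 6 to 8. These 3 cores were chosen for their high lowest value, so that all their copies are high follows from the choice. A long pause was not shared by all copies elsewhere. The B1 core cagggctAcacagag had 8.93 in Vamp4 on chromosome 1 (coverage 6) and 2.63 on chromosome 8 (coverage 13), both in WT S, with contexts identical over 41 bases. The highest score of any member was 58, at a WT S site of core ccagctaAtcggtca on chromosome 8 (position 4577376), with an IPD ratio of 3.20. Its copy on chromosome 16 (position 12977419) had the highest score of the WT L members, 50, with a ratio of 2.98.

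The IPD ratio varied less among copies of a core than over all members or over the other sites, a difference that was not tested. The SD of the log2 IPD ratio was 0.413 within cores, 0.524 over all members and 0.551 over the other sites outside the intervals left aside. In 52 cores (31.9%) every site lay above the other sites' median of 2.66, and in 30 (18.4%) every site lay below it. Most cores (112 of 163) had only 2 sites, which can often fall on the same side without being alike. The share to expect from unrelated sites was not computed, so these counts do not show that copies are alike. These values are descriptions, since copies of a core are not replicates.

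The members as a whole had a median IPD ratio of 2.87 (exact binomial 95% interval 2.75 to 2.97, n = 419), against 2.66 (2.64 to 2.68) for the other 15374 sites. The difference had the same direction in each list, but only in WT S did the members' interval leave out the others' median. Medians of members and others were 2.94 and 2.75 for KO S, 2.80 and 2.63 for WT S, 2.90 and 2.67 for KO L, and 2.88 and 2.65 for WT L. Between genotypes the members' values were close: the intervals of 2.62 to 3 in KO L and 2.59 to 3.25 in WT L overlapped, as did 2.66 to 3.30 in KO S and 2.66 to 3.02 in WT S. Median coverage was 12 for members and 11 for the others, and its part in the result was not tested. The deposited modified fraction, given at coverage of 11 or more only, had a median of 85.8% (79.4 to 90.4%) in 247 members and 73.7% (72.6 to 74.8%) in the others. By list the medians of members and others were 90.35 and 78.7% for KO S and 79.4 and 72.5% for WT S. In the L part they were 81.3 and 70.9% for KO L and 97.8 and 73.6% for WT L. The members' intervals held the others' medians in WT S (71.2 to 86%) and KO L (64.8 to 98.5%). A score for N6-methyladenine itself of 20 or more was listed for 15.3% of members (12 to 19.1%) and 11% of the others. That difference lay in the L part, with 19.2 and 8.52% for WT L and 16.9 and 8.29% for KO L, whereas the shares were 14.1 and 13.3% for WT S and 12.9 and 11.4% for KO S.

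Members and other sites differed in the base that followed the call. It was thymine in 40.6% of members (35.8 to 45.4%) and 28.6% of others (27.9 to 29.3%), and adenine in 19.3% (15.7 to 23.4%) and 34.7% (34.0 to 35.5%). The rule drops cores of fewer than 3 different bases and so removes adenine runs, but among the 14821 other sites whose cores met that rule the shares were still 29.4% thymine and 33.0% adenine. Guanine followed in 25.3% of members (21.2 to 29.7%) and 22.5% of the others. By list the guanine share of members was 30.6% for KO S, 23% for WT S, 29.2% for KO L and 21.8% for WT L, with intervals that overlapped. The other sites had 27.6%, 20.8%, 22.7% and 21.1% in the same order.

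Part of the IPD ratio went with that next base. Before thymine the median ratio was 2.855 (2.69 to 2.99) in members and 2.60 (2.57 to 2.64) in others, and before cytosine 3.12 (2.80 to 3.45) and 2.73 (2.69 to 2.79). Before adenine and guanine the members' intervals, 2.39 to 2.87 and 2.63 to 3.46, held the others' medians of 2.51 and 2.97. The higher IPD ratio of the members was thus seen before thymine and cytosine, and the 4 differences were not tested against each other. The modified fraction went with the next base too. Its medians in members and others were 97.7 and 92.1% before thymine and 92.2 and 82.6% before cytosine. They were 79.95 and 76.05% before guanine and 53.1 and 57.3% before adenine. Only before thymine did the members' interval (93.4 to 100%) leave out the others' median. How much of the pooled difference in the fraction went with the next base was not tested.

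**Figure D3:**
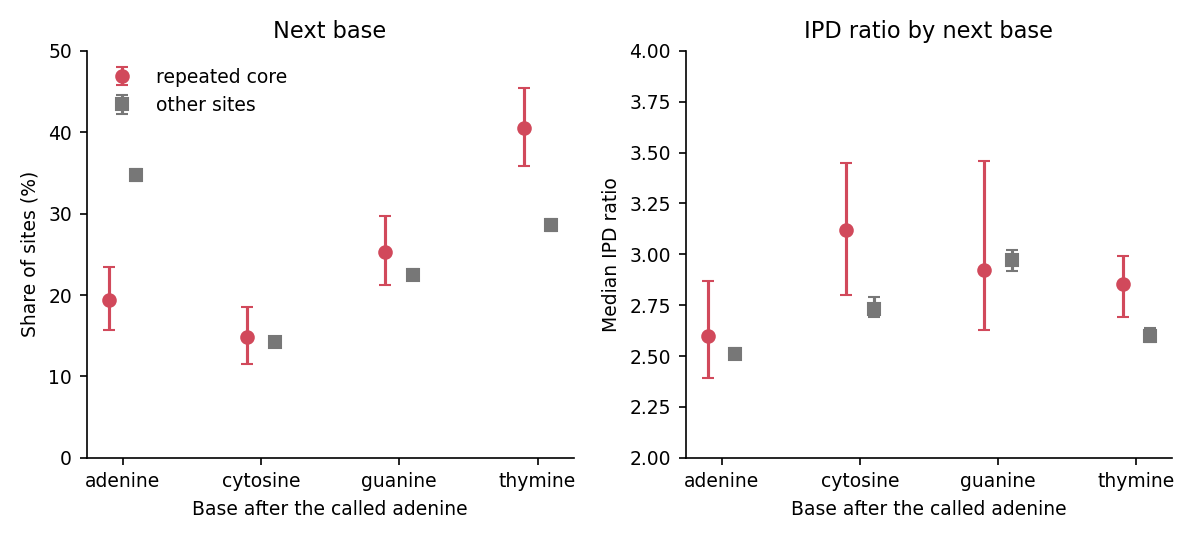
Members and other sites by the base that follows the called adenine, with the share of sites in percent and the median IPD ratio, and exact 95% intervals as bars. Members have more thymine and less adenine after the call, and their median ratio lies above that of the others before thymine and cytosine. Copies of a core share their next base, and the bars count every copy.

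The share of recurring sites differed between genotypes by less than its counting error. Members made up 78 of 3495 sites in WT L (2.23%, interval 1.77 to 2.78%) and 65 of 2684 in KO L (2.42%, 1.87 to 3.08%). In the S part they were 191 of 6598 in WT (2.89%, 2.5 to 3.33%) and 85 of 3016 in KO (2.82%, 2.26 to 3.47%). The intervals overlap within each part and within each genotype. A larger list also offers more partners, so these shares depend on the sizes of the pooled lists. Of the 163 cores, 99 had sites in both genotypes, 53 in WT only and 11 in KO only. WT lists held 10093 and KO lists 5700 of the sites searched. Cores in both DNA parts numbered 102, with 50 in S only and 11 in L only. The S lists held 6598 and 3016 sites and the L lists 3495 and 2684, so these counts also depend on list size.

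The repeats named above divided the lists in another way. Members named LINE-1, which leave out any LINE-1 site whose core did not recur, made up 1.69% of the KO S list (interval 1.26 to 2.22%) and 1.17% of WT S (0.922 to 1.46%), against 1.08% of KO L (0.725 to 1.55%) and 0.916% of WT L (0.627 to 1.29%). Among members alone, LINE-1 was 60% for KO S (48.8 to 70.5%), 40.3% for WT S (33.3 to 47.6%), 44.6% for KO L and 41% for WT L. In the S part the intervals of the shares of members do not overlap, while those of the shares of the list do. Several LINE-1 sites can stand in 1 copy, and the 51 KO S sites lay at 44 places. Since each group has 1 list, whether this exceeds the spread between replicates was not tested.

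**Figure D4:**
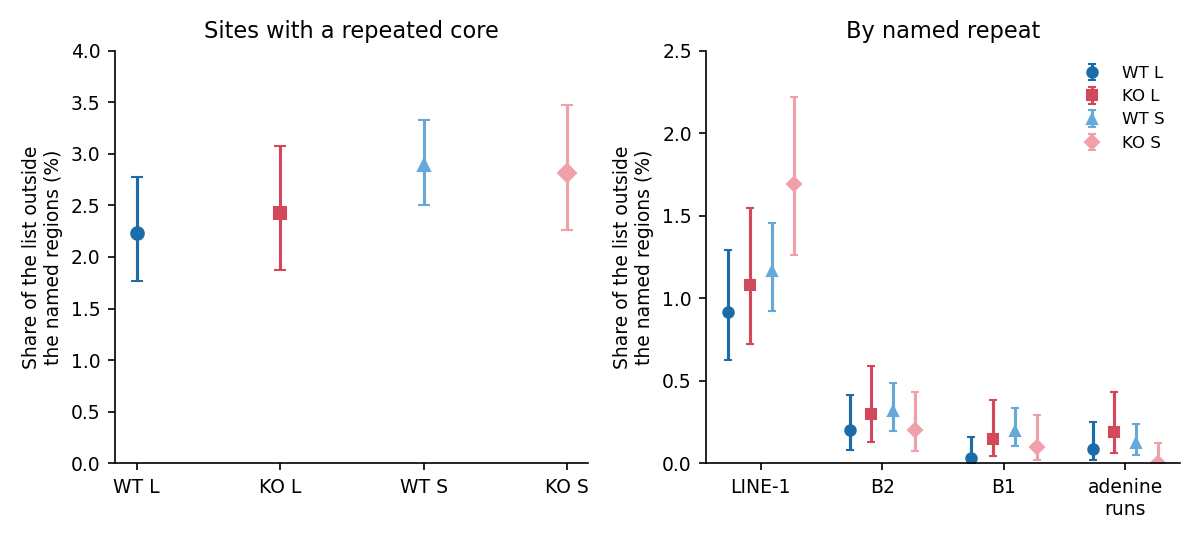
Share of each list, in percent of its sites outside the intervals left aside, that were members (left) or members of a named repeat (right), with exact Clopper-Pearson 95% intervals as bars. The 4 shares on the left lie between 2.23 and 2.89%, and LINE-1 on the right runs from 0.916% in WT L to 1.69% in KO S.

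None of the members was called at the same base in 2 lists, so the lists shared cores but no single copy of a core at the same adenine. For KO L in WT L this was 0 of 65 members, where 0.0745% of all sites outside the intervals left aside were called at the same base, and a count of 0 allows up to 4.62%. For KO S in WT S it was 0 of 85 against 0.166% of all sites, with a limit of 3.53%. For WT L in WT S it was 0 of 78 against 0.0572%, with a limit of 3.85%, and for KO L in KO S 0 of 65 against 0.0745%. At this number of members the background share could not have been seen, so no difference from the other sites is detectable.

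Members lay on every one of the 21 chromosomes. Their share of the sites of a chromosome ran from 1.14% on Y (2 of 175) to 4.63% on X (19 of 410). X held 4.53% of the members (2.75 to 6.99%) and 2.54% of the other sites (2.30 to 2.80%). Of the 19 X sites 14 were in LINE-1 groups and none in B1 or B2 groups. By list X held 4 of 85 members of KO S, 10 of 191 of WT S, 4 of 65 of KO L and 1 of 78 of WT L.

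Members lay in RefSeq genes (from gene start to gene end, exons and introns together) in 39.9% of cases (35.1 to 44.7%), against 52% of the other sites. The share was below that of the others in each list, at 36.5% for KO S, 39.3% for WT S, 40% for KO L and 44.9% for WT L. It differed between the named repeats, at 35.4% for LINE-1 (28.6 to 42.7%), 57.1% for B2 (41 to 72.3%) and 81.0% for B1 (58.1 to 94.6%). In protein-coding genes lay 28.4% of members and 43.7% of others. Genes longer than 500 kb held 6.44% of members and 6.58% of others, chemosensory receptor genes 2 members (0.477%, against 0.390% of others) and Zfp genes 1 (0.239%, against 0.644%).

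No gene stood out by number. The genes with 2 member positions each were 9930111J21Rik1, Ubap2, Gm20752, Wdfy4, Pdzd2 and the receptor loci Tcra and Igh, and the remaining genes had 1. Of the genes with 1, the shortest for their count were Kcnk7, a potassium channel gene, LOC108169020 and Gm6125. In Igh the 2 sites were the adenines 4 bases apart named above.

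**Figure D5:**
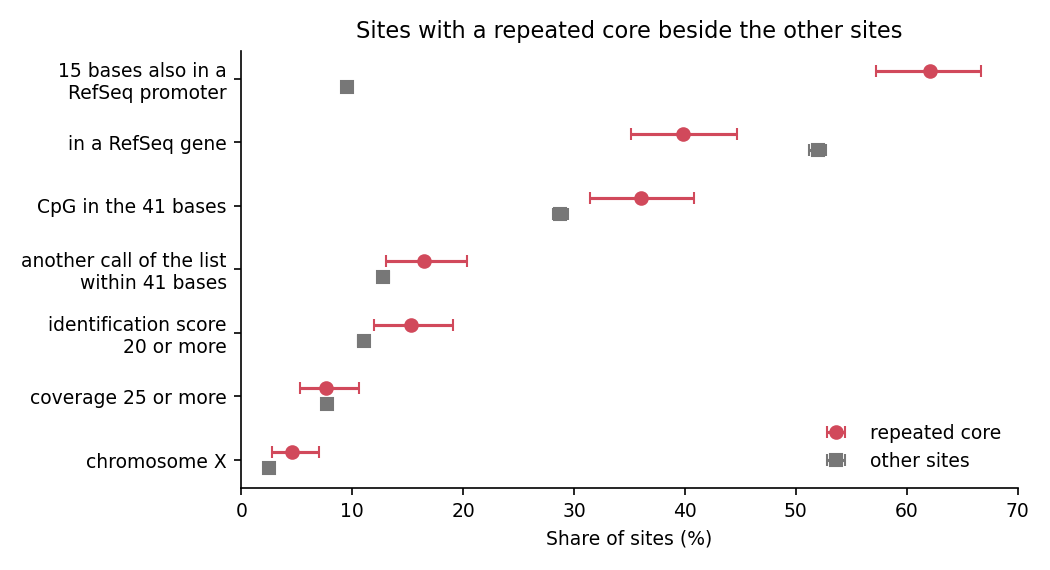
Share of member sites and of other sites, in percent, that have each feature, with exact 95% intervals as bars. Of the members 39.9% lie in genes against 52% of the other sites, and the 15 bases of the core occur in promoters more often for members. The share with coverage of 25 or more is nearly the same, at 7.64 and 7.76%.

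The distance in the rule was not a close boundary. Among copies of a core on 1 chromosome, the closest pair over 10 kb apart was 93.2 kb apart, and the widest pair below it was 0.471 kb apart.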

How the data were processed

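H2A.X-bound DNA of TT2 ES cells was sequenced by SMRT sequencing in 8 samples, and 1 list of called N6-methyladenines was deposited per group of 2. Both replicates of a group share that list, per the labels. Coordinates are mm10 (per the submitters' processing notes). Not given in the sources used here are the base caller, the aligner, any filter and how replicates were merged. The deposited score of a call has 20 as its lowest value, and the deposited identification score refers to N6-methyladenine; neither scale is stated. The deposited IPD value is a linear ratio, and coverage is a signal that the authors deposited unnormalized. The deposited modified fraction was multiplied by 100 and is a percent here. The lists hold called bases alone, so depth elsewhere is unknown.

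The rule set aside 1 unplaced contig (chrUn), chromosome 9 from 3.0 to 3.1 Mb and from 35.3 to 35.31 Mb, chromosome 14 from 19.4 to 19.5 Mb, and chromosome 2 from 98.6 to 98.7 Mb. Cores were compared on the called strand over the 4 pooled lists. Shares have exact Clopper-Pearson and medians exact binomial intervals at 95%, which treat sites as independent. Limits for a count of 0 take 3 counts. Genes and promoters came from RefSeq tables of GRCm38.p6, which shares chromosome coordinates with mm10. The cores named are the 12 with the most places, and the groups named are the 5 with the most. Genes named hold a site of such a core or are among the 10 with the most member positions. Sites named have the 3 highest scores of a list or are equal over 41 bases. Other cores, such as those with the longest pauses, and the genes that hold their sites (Otud7a, Vamp4 and Gtf3c5 among them) were chosen after their values were seen. Spata16 and Tmem217 are named because they hold a named site. Members and lists were chosen with earlier results of these data known. Alternatives changed the score, the coverage, the core length, the distance, the pool of partners and the handling of satellite-like and short-period sequence. Matching and intervals were tested on simulated data. Python 3.11.15, pandas 2.3.3, numpy 2.4.6, scipy 1.17.1 and matplotlib 3.10.9 were used.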

Additional observations from a re-analysis of the deposited data

How the results depend on the processing

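Leaving out periods of 5 to 7 removed no member and so tests nothing. Under the other settings 64 of 91 values lay within the interval of the reported value (12 of them the recurrence at the same base, which was 0 throughout), and none of the 27 others came from using another chromosome only, leaving out satellite-like sites, or taking 1 site per core and list (an alternative chosen after seeing the data). With a score of 30 or more (36 members left) the member shares were 1.19% for WT L, 0.903% for KO L, 1.23% for WT S and 1.47% for KO S, the median IPD ratios of WT L, WT S and KO S were 5.665, 3.325 and 3.885, the share of members with guanine next was 16.7% in WT S, and 29.2% of pairs were identical. With coverage of 25 or more (8 members left) the shares, in the same order of lists, were 0.847, 1, 0.488 and 1.07%, guanine came next in 0, 100, 75 and 100% of members, 0% of pairs were identical, and too few members remained for a median IPD ratio. With 21 equal bases (298 members) the shares were 1.55, 1.42, 2.11 and 2.22%. With partners from the site's own list only (169 members) they were 0.458, 0.447, 1.59 and 1.19%, and guanine came next in 50% of members in KO L. Stricter filters also shrink the pool of possible partners by construction. No paired analysis was possible because each list joins both replicates of its group, and for the same reason no replicate could be left out. Low coverage (a median of 12) limits each single IPD ratio.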

Other observations

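Core atttaggAtagtaaa was called at 2 copies on chromosome 3 with identical 41-base contexts, in WT L (position 26949555, in Spata16, score 47, IPD ratio 6.62) and in WT S (position 12476257, score 50, IPD ratio 4.22). The KO L member with the highest score, 48, was in an adenine run within Tmem217 on chromosome 17 (position 29545594, IPD ratio 3.06). A satellite-like core outside the intervals left aside was called on chromosome 12 in WT S (position 3109892) at a coverage of 541 and an IPD ratio of 1.32, the lowest ratio of the 419 members. The group of joined adenine runs had 8 sites for WT S, 5 for KO L, 3 for WT L and none for KO S. An adenine-run core outside that group, tgaaaaaAaaaaaaa, had both of its sites in KO S, so the absence holds only for that group.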
